A study of Caenorhabditis elegans with 34 samples.

Results

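The genes described here are 163 genes of the nematode Caenorhabditis elegans whose RNA was less abundant in adult wild-type worms with a germ line than in adult glp-4 worms, and at about the same level in worms that make sperm and worms that make oocytes. They were chosen by these measured values. The mean log ratio had to be at least 1.3 higher in glp-4 adults than in wild-type adults, and the mean ratio of fem-3 over fem-1 worms had to lie within 0.5 of 0. Each gene also had to carry a sequence name on the arrays rather than a gene-class symbol. Of 5543 genes named on the arrays, 4593 had only a sequence name, and 3964 of these had the 2 values per adult group and 3 fem values that the choice needs. The adult difference was reached by 255 of them, of which 67 had fem-3 higher, 25 had fem-1 higher and 163 had neither. Of the 163, 162 matched the reference gene table by gene ID, and all 162 still have no gene-class symbol there: 156 are listed as protein coding, 5 as pseudogenes and 1 as a non-coding RNA. No role is given below for a gene with a sequence name only.

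RNA was measured on 34 spotted two-colour arrays with 13323 probes. On 29 of them RNA of 1 strain was hybridized with RNA of a reference, called the pool below, which some titles name as N2. The titles word it as a mixed control or as REF-vjr, and whether both name the same pool is not stated. The strains were glp-4(bn2), with 3 arrays at larval stage L2, 4 at L3, 4 at L4 and 4 of adults, and wild type (N2), with 3, 4, 4 and 3 arrays at the same stages. The remaining 5 arrays paired fem-3(q23) worms, a temperature-sensitive gain-of-function mutant that makes sperm continually, with fem-1(hc17) worms, a temperature-sensitive loss-of-function mutant that makes oocytes and no sperm. The labels give the soma as female in both fem strains, growth at 15 degrees Celsius and mutant phenotypes at 25 degrees Celsius. When any shift took place was not stated. The labels use glp-4(bn2) as worms that lack a germ line at the restrictive temperature, and ages in hours are not used here. Whole worms were extracted, so for every value below fewer cells of a type and less RNA per cell cannot be told apart. Neither can be told apart from a smaller share of whole-worm RNA when other cells hold more of it.

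A hermaphrodite hatches with a pair of germline precursor cells, which multiply through the larval stages and fill much of the adult body with germ cells, sperm and oocytes. The bn2 allele of glp-4, a valyl-tRNA synthetase gene, arrests the germ cells early, while the intestine, epidermis, muscle and nervous system still form. The fem genes act in germline sex determination, so the fem arrays set a germ line of sperm against one of oocytes.

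Of a list of germ line genes, 5 were on the arrays by name: mip-1, lotr-1, tost-1, syp-6 and nse-4. The list's glp-1, gld-1, pgl-1, glh-1 and rme-2 were not found by name. All 5 were lower in glp-4 than in wild type at L4, with a median of -1.79. At L3 4 of 5 were lower, and at L2 0 of 5 passed. Their median adult difference was -3.05. Of all probes tested, 11.8% were lower in glp-4 at L4, 2.15% at L3 and 0.224% at L2. Since the list was chosen with earlier results of these data known, its direction is no independent check of the strain labels. The 5 sperm genes and the 2 oocyte genes found by name were also lower at L4, all passing the test. The number of probes with a value was 10155 to 11696 on the arrays with a pool and 12215 to 13295 on those of the fem strains. The stage labels of 3 arrays disagree within themselves: the details of wild-type L4 replicate 1 name L3, those of replicate 4 name L34, and the source name of glp-4 L2 replicate 1 reads L3. For replicate 1 of the glp-4 adults the title holds a time code unlike that of the other adult arrays. Counts are given with and without the 3 arrays where that matters.

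Values are log ratios of worm RNA over the pool, taken as log2; no source used here states the base, so folds hold only if it is 2. Since adult and fem values chose the genes, they are given first as a description with no test. The adult difference, glp-4 minus wild type, had a median of 1.52 over the 163 genes, with a range of 1.3 to 3.68, while the median of all probes was 0.17. The arrays of the adult groups did not overlap for 135 of the genes and overlapped for 28. The choice by adult difference favours such separation, and its share over all probes was not counted. Just inside the limit were T14A8.2 at 1.3, T19D7.6 at 1.305 and R07E3.1 at 1.31, and just outside it H20E11.1 at 1.297, F44A2.5 at 1.29 and F28H7.3 at 1.29. The fem ratio had a median of 0.13 over the members, against 0.16 over all probes, so the deposited fem values were not centred on 0. F49C12.2 at 0.50, F01D5.1 at -0.49 and R102.1 at -0.50 lay just inside the fem limit, and F41G3.10 at 0.51, C06C3.4 at 0.51 and F49H6.5 at -0.52 just outside.

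The largest adult differences rested on unequal amounts of data. T22B7.7, on chromosome X, was at 2.47, 2.42, 3.17 and 3.15 in glp-4 adults, against -0.94, 0.55 and -0.73 in wild-type adults. All glp-4 arrays were well above all wild-type arrays, and the difference of means was 3.18. F01D5.1, on chromosome II, was at 2.78, 3.17, 3.02 and 3.33 in glp-4 adults and at 0.84, 1.65 and -0.21 in wild-type adults, a difference of 2.31. It had a high ratio to the pool in glp-4 adults, and the groups again did not overlap. F58H1.2, on chromosome V, was at -1.24, -1.31, -0.06 and -0.83 in glp-4 adults and at -3.12, -3.10 and -3.32 in wild-type adults. Here both strains lay below the pool. R09H10.3, on chromosome IV, had the largest difference, 3.68, but it came from scattered values of -0.77, 4.58 and 1.21 in glp-4 adults and -3.0 and -1.0 in wild-type adults. The pseudogene F46A8.2, at a difference of 2.75, had 0.23, -0.38 and 1.36 in glp-4 adults and -4.74, 0.40 and -2.71 in wild-type adults, so its groups overlapped. In all, 28 members had only 2 values in an adult group, and 118 had a value on every adult and fem array. The other 4 pseudogenes, R08H2.10, F07H5.3, B0238.13 and R10E8.7, had adult differences of 2.27, 1.57, 1.56 and 1.55, and the non-coding RNA gene W05H9.3 had 1.61.

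The fem ratio near 0 was a mean, and single arrays strayed from it. The values on the fem arrays had one sign for 36 members, and the median range over the arrays was 0.90. F01D5.1 was slightly lower in fem-3 on every array, with ratios of fem-3 over fem-1 of -0.40, -0.50, -0.39, -0.47 and -0.69. R102.1 met the limit through 1 array: it had -3.83 on fem replicate 1, against 0.86, 0.56 and 0.42 on the others that measured it. ZC239.17 also had a single low value, -3.60 on fem replicate 3, with 0.65, 0.82, 0.17 and 0.26 on the others. Y38H6C.13 ran from -1.58 to 2.80 over 4 fem arrays. These 3 had the widest ranges of all members.

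Across the stages, the member median was above the pool in glp-4 from L3 on and below it in wild-type adults. All L2 arrays carry the REF-vjr wording and all adult arrays the mixed one. Levels over the pool are therefore partly tied to the wording when stages are compared. The median over the members of the group means was -0.04 at L2, 0.66 at L3, 0.75 at L4 and 0.71 in adults for glp-4. For wild type it was -0.08 at L2, 0.16 at L3, -0.00 at L4 and -0.84 in adults. All glp-4 arrays from L3 on had member medians between 0.60 and 0.92, and the 3 wild-type adult arrays lay between -0.90 and -0.57. The medians of all probes on the same arrays stayed between -0.22 and 0.05. In adults, 129 members lay below the pool in wild type and 134 above it in glp-4, and 100 did both.

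**Figure D1:**
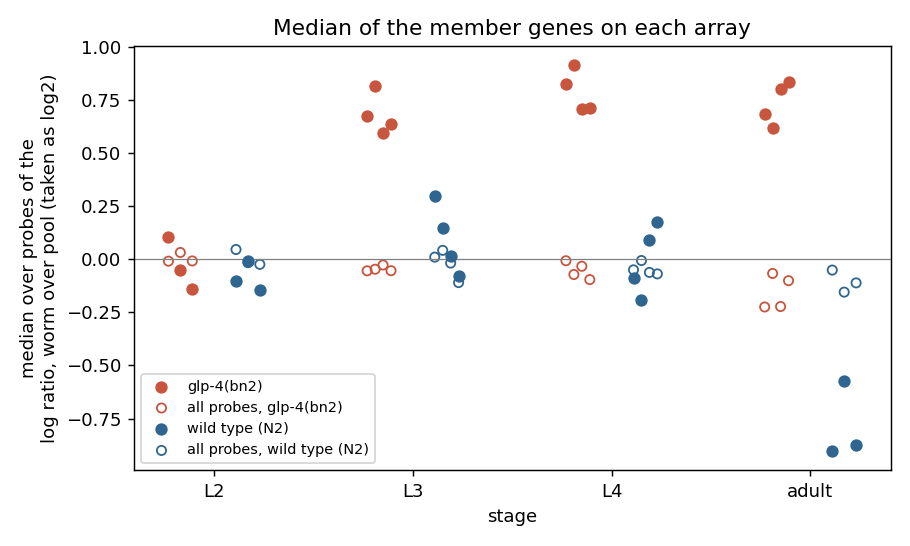
Median log ratio of worm over pool (y axis, taken as log2) over the member genes (filled points) and over all probes (open points) on each of the 29 reference arrays, by stage (x axis), glp-4(bn2) left of wild type (N2). The member medians of the 2 strains lie together near 0 at L2; in adults glp-4 arrays lie between 0.62 and 0.84 and wild-type arrays between -0.90 and -0.57.

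The larval arrays did not enter the choice, so the strains were tested there, with limma over all probes. Whether larval and adult arrays of the same batch number share cultures is not stated, and their correlation was not computed. At L4, the last larval stage, 70 of the 148 members tested were higher in glp-4 and 1 was lower, with a median difference of 0.81. That is 47.3% of the members tested, while 8.07% of all 11220 probes tested were higher and 11.8% were lower, with a median of 0.06. The L4 difference was above 0 for 138 members. The called differences ran from 0.68 to 2.05, and for 58 of the 70 genes the arrays of the strains did not overlap. Passing the test favours such separation, and its share over all probes was not counted. Among the 70, the glp-4 mean lay above the pool for 55 and the wild-type mean below it for 42. Without the 3 arrays of unlike stage labels the count was 46, the same as without glp-4 L4 replicate 2, and the median was 0.90 and 0.77 in these fits.

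T24A6.7, on chromosome V, had the strain difference at every larval stage. At L2 it was at 1.69, 2.11 and 0.73 in glp-4 and at -0.22, -0.27 and -0.31 in wild type; at L3 at 1.34, 1.57, 1.20 and 1.47 in glp-4 and at -0.93, -0.56 and -0.85 in wild type. At L4 it was at 0.21, 1.64, 1.27 and 1.28 in glp-4 and at -0.40, -0.78, -0.62 and -0.79 in wild type. All glp-4 larval arrays lay above all wild-type ones. The differences were 1.78 ± 0.36 at L2 (SE, adjusted p = 0.0294, kept in 7 of 12 alternatives), 2.18 ± 0.33 at L3 (adjusted p = 0.000743) and 1.75 ± 0.31 at L4 (adjusted p = 0.00024). In adults it was smaller, 1.39.

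C08E8.4, also on V, was at 0.77, -0.31, -0.28 and 0.46 in glp-4 at L4, against -1.80, -2.10, -0.97 and -1.42 in wild type. The groups were apart, by 1.73 ± 0.33 (adjusted p = 0.000434), and its values were also apart at L3, by 1.29 ± 0.33 (adjusted p = 0.0309), a call that held in 9 of 17 alternatives. ZC196.2, on V, was at 0.09, -0.00, -0.39 and 0.01 in glp-4 at L4 and at -1.75, -1.46, -1.71 and -1.33 in wild type, a difference of 1.49 ± 0.30 (adjusted p = 0.000934). Its L2 values ran from -1.73 to -1.26 in glp-4 and from -1.94 to -1.47 in wild type and overlapped, and its L3 difference was 1.47 ± 0.30 (adjusted p = 0.00746). Both genes stayed below the pool in wild type at every stage.

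C06E4.8, on chromosome IV, was at 0.30, 0.06, -1.0 and -1.03 in glp-4 at L3 and at -2.70, -1.75, -1.37 and -2.37 in wild type. At L4 it was at 0.27, 0.20, -0.49 and -0.33 in glp-4, against -1.31, -1.79, -1.52 and -1.34 in wild type. The strains were apart at both stages, by 1.63 ± 0.33 at L3 (adjusted p = 0.0064) and 1.40 ± 0.33 at L4 (adjusted p = 0.00345). F41C6.6, on X, was at 1.14, 0.73, 0.61 and 0.80 in glp-4 at L3 and at -0.83, -0.73, -0.48 and -1.21 in wild type, a difference of 1.63 ± 0.31 (adjusted p = 0.0038). T22B7.7 was at 1.08, 0.73 and 0.05 in glp-4 at L4 on the 3 arrays that measured it, and at -0.64, -0.77, -0.37 and -1.81 in wild type. That is 1.51 ± 0.34 (adjusted p = 0.00292), below its adult difference of 3.18. F58H1.2 was at 1.64, 1.5, 1.93 and 2.56 in glp-4 at L4, against -0.49, -1.14, 0.19 and 0.89 in wild type. Its difference of 2.05 ± 0.47 (adjusted p = 0.00447) was the largest among the members called higher at L4, and in adults both strains were lower than at L4, by 2.77 and 3.04 as differences of means in glp-4 and wild type.

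By adjusted p rather than by size, the L4 call was strongest for the pseudogene B0238.13 on V, at 1.29 ± 0.21 (adjusted p = 7.12e-05), and next for the pseudogene F07H5.3 on II, at 1.13 ± 0.19 (adjusted p = 0.000145). These 2 were picked out after their values were seen. The member lower in glp-4 at L4 was Y38H6C.13, on V. It was at -2.76 and -4.14 in glp-4 and at -0.82 and 2.63 in wild type, with 2 arrays measured in each strain, a difference of -4.36 ± 1.22 (adjusted p = 0.0286). Its adult difference was in the opposite direction, 2.00, with overlapping arrays.

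At L3 fewer members passed. In glp-4, 16 of 147 tested were higher and 0 were lower, with a median difference of 0.56, while 1.08% of all probes tested were higher and 2.15% were lower, with a median of -0.02. The difference was above 0 for 124 members. Of the 16, 14 were also higher at L4. The called differences ran from 0.66 to 3.07. The largest, H10E21.5 on chromosome III, was at 0.22, -0.27, 1.00 and 1.19 in glp-4 and at -1.61 and -3.46 on the wild-type arrays that measured it, a difference of 3.07 ± 0.69 (adjusted p = 0.0401). F08G2.5, on II, was at 1.35, 2.21, 0.95 and 1.22 in glp-4 and at -1.85, -0.79, -0.04 and -0.17 in wild type, a difference of 2.14 ± 0.55 (adjusted p = 0.0341). In C08F11.13, on IV, the difference was 1.598 ± 0.40 (adjusted p = 0.0341). These 3 calls held in few alternatives: H10E21.5 in 5 of 12, F08G2.5 in 8 of 17 and C08F11.13 in 9 of 15. With the replicate block H10E21.5 and C08F11.13 no longer passed, and H10E21.5 also failed without any 1 of the 4 glp-4 arrays. The L3 count moved with single arrays and settings: it was 6 without glp-4 L3 replicate 2, 7 with wild-type L3 replicate 1 left out, 9 with glp-4 L3 replicate 1 left out, 10 with glp-4 L3 replicate 4 left out, and 2 when only the L3 arrays were fitted.

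At L2 the members did not stand apart. T24A6.7 was the only one called of 123 tested, with a median difference of -0.05 over them. Of all probes, 0.195% were higher in glp-4 and 0.224% lower at L2. The difference was above 0 for 55 members, and 17 had an unadjusted p under 0.05, which is 13.8% of the members, beside 10.7% of all probes. Without glp-4 L2 replicate 1, whose source name reads L3, the median was -0.20 and 3 members passed as lower. Without any 1 of the 3 wild-type arrays or glp-4 L2 replicate 2, no member passed by limma. Of the members, 5 could be tested at no larval stage: C10A4.4, F11D11.3, F47B7.3, K11D2.4 and M03D4.4.

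**Figure D2:**
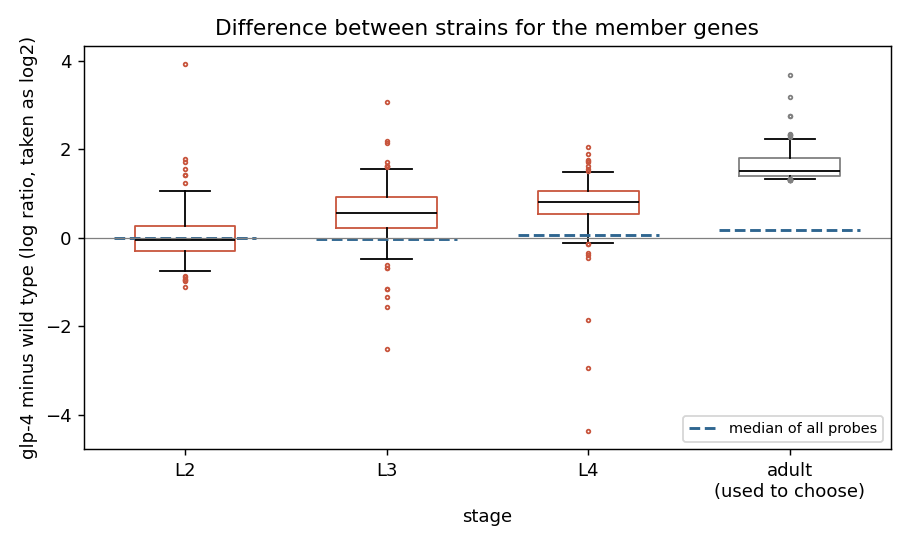
Difference of group means, glp-4 minus wild type (y axis, log ratio taken as log2), over the member genes at each stage (x axis); boxes span the quartiles, whiskers the 5th to 95th percentiles, dots the genes outside them, and dashed lines give the median of all probes. The member median is -0.05 at L2, 0.56 at L3 and 0.81 at L4; the adult box was used to choose the genes.

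The next question was in which strain the members moved between larval stages. From L2 to L3, 42 of 127 members tested rose in glp-4 and 0 fell, with a median change of 0.73, while 6.71% of all probes rose and 3.57% fell, with a median of -0.09. In wild type 1 of 126 rose and 0 fell over the same step, with a median of 0.18, while 0.133% of all probes rose and 0.0477% fell. Of the 42 that rose in glp-4, 39 also had a change above 0 in wild type, and 30 (71.4%) were higher in glp-4 than in wild type at L4. Of all 704 probes that rose in glp-4 and were tested at L4, 305 (43.3%) were higher there, and the difference between these shares was not tested. The difference between the strains in this step was tested directly, a comparison added after these values were seen. By limma 0 of 119 members passed, as did 0% of all probes, in either direction. The median difference of the steps was 0.58, it was above 0 in 101 members, and 29 members (24.4%) had an unadjusted p under 0.05, as did 7.81% of all probes. Without glp-4 L2 replicate 1, 3 members passed. So no single gene was shown to rise more in glp-4 with all arrays. The wording of the reference differed with the stage: all L2 arrays carry the REF-vjr wording, while L3 arrays carry both wordings; with the wording as a block 35 rose. Leaving out glp-4 L2 replicate 3 gave 21, leaving out replicate 2 gave 27, and fitting only these 2 groups gave 17.

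F36G3.2, on X, was at 1.16, 0.05 and -0.35 in glp-4 at L2 and at 2.84, 2.40, 2.20 and 2.15 at L3. In wild type it was at 1.16, 1.35 and 1.302 at L2 and at 1.80, 1.46, 1.89 and 1.61 at L3. Its rise in glp-4 was 2.11 ± 0.28 (adjusted p = 5.4e-05), and the glp-4 arrays lay above the wild-type arrays at L3 but not at L2. F54D5.4, on II, was at 0.03, -0.50 and -0.77 in glp-4 at L2 and at 1.93, 2.60, 1.66 and 2.52 at L3, a rise of 2.59 ± 0.40 (adjusted p = 0.000261). In wild type it was at -0.21, 0.09 and 0.01 at L2 and at 0.84, 1.48, 0.82 and 0.65 at L3, so its values were higher at L3 in both strains. C50F4.1, on V, rose by 2.33 ± 0.44 in glp-4 (adjusted p = 0.00145). The 1 member that rose in wild type was F59E11.5, on V, at -2.24 and -1.31 at L2 and at 1.93, 2.19, 1.56 and 0.83 at L3, a rise of 3.40 ± 0.42 (adjusted p = 0.00117). In glp-4 it had 1 array at L2, at -1.88, and 2.68, 1.62 and 2.08 at L3, so it was not tested there.

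From L3 to L4 few members changed in either strain. In glp-4 3 of 146 rose and 0 fell, with a median of 0.08, while 0.34% of all probes rose and 0.0268% fell. In wild type 5 of 145 rose and 2 fell, with a median of -0.22, while 5.39% of all probes rose and 1.86% fell. The largest rise occurred in both strains. C14F11.4, on X, was at -1.02, -1.21, -0.71 and -0.91 in glp-4 at L3 and at 2.89, 2.37, 1.46 and 1.13 at L4. In wild type it was at -0.43, -1.49, -0.59 and -1.06 at L3 and at 2.92, 2.77, 2.44 and 1.55 at L4. It rose by 2.93 ± 0.34 in glp-4 (adjusted p = 2.44e-05) and by 3.31 ± 0.34 in wild type (adjusted p = 1.52e-06), and its strain arrays overlapped at both stages. The strains came apart in adults, where it was at 2.54, 2.60, 2.56 and 2.93 in glp-4 and at 1.63, 0.95 and 1.24 in wild type. K07A1.13, on chromosome I, rose by 1.97 ± 0.42 in glp-4 (adjusted p = 0.0294) and by 2.20 ± 0.39 in wild type (adjusted p = 0.00045); the first call was lost with the replicate block and held in 7 of 14 alternatives, the second in 15 of 15. C07E3.9, on II, rose by 0.97 ± 0.20 in glp-4 (adjusted p = 0.0197, kept in 9 of 14 alternatives), and W05B10.3, on V, by 2.57 ± 0.56 in wild type (adjusted p = 0.00598). F23H12.5, on V, fell in wild type, by 0.98 ± 0.28 as the change to L4 (adjusted p = 0.0327), a call that held in 8 of 15 alternatives.

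The strain difference itself changed from L3 to L4 in 1 of 141 members tested, in which it became larger, and in 0 it became smaller, while it became larger in 0.165% of all probes and smaller in 2.47%. That member was C05C8.7, on chromosome V. It was at 0.50, 1.20, 1.54 and 0.82 in glp-4 at L3 and at 1.23, 1.27, 1.46 and 1.23 in wild type, overlapping. At L4 it was at 0.97, 1.04, 1.39 and 0.83 in glp-4 and at 0.22, 0.05, 0.15 and 0.68 in wild type, so that the wild-type arrays now lay below all glp-4 arrays. The change of the difference was 1.07 ± 0.28 (adjusted p = 0.0376), and wild type fell by 1.02 ± 0.20 from L3 to L4 (adjusted p = 0.00107). The median change over the members was 0.25, against 0.05 over all probes. The count was 0 in most fits that left out 1 array and 5 without wild-type L4 replicate 4. With the replicate block, which pairs arrays by their batch number, it was 3, and C05C8.7 was not among them. The call of C05C8.7 held in 9 of 23 alternatives, while its fall in wild type held in 15 of 15.

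**Figure D3:**
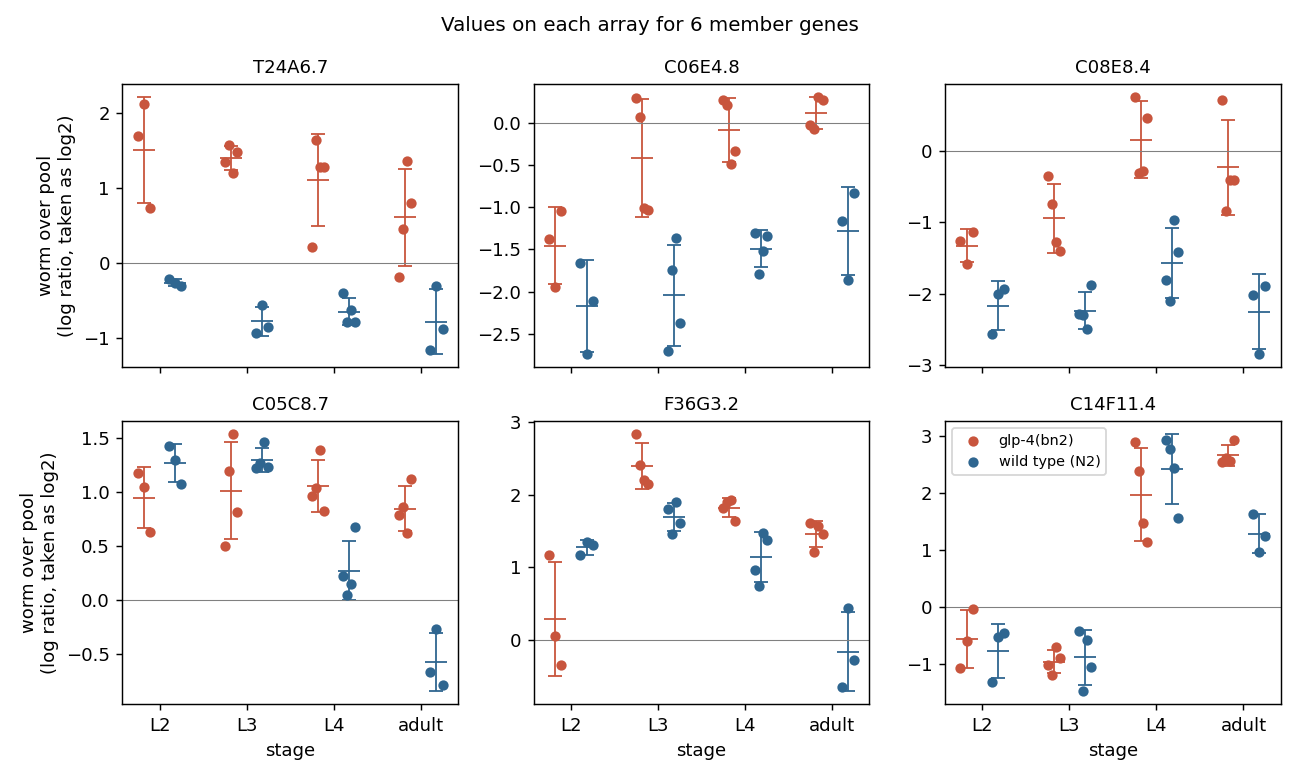
Log ratio of worm over pool on each array (y axis, taken as log2) by stage (x axis) for 6 member genes, glp-4(bn2) left of wild type (N2); points are arrays, bars the mean and SD. T24A6.7 is apart at L2, L3 and L4, C06E4.8 and C08E8.4 at L3 and L4, C05C8.7 from L4 on, F36G3.2 is higher at L3 than at L2 in glp-4, and C14F11.4 is higher at L4 than at L3 in both strains.

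From L4 to adults the values are a description, since adult levels chose the genes. The member median of the change was 0.18 in glp-4 and -0.64 in wild type, and over all probes it was -0.07 and -0.12 in the same order. Of 148 members with both changes, 69 were higher in adults in glp-4 and lower in wild type, 58 were lower in both, 21 were higher in both and 0 were lower in glp-4 and higher in wild type. The strain difference was larger in adults than at L4 in 144 of 148. C50F7.5, on IV, was a case of a higher adult level in both. It was at 4.03, 1.97, 2.17 and 2.06 in glp-4 adults, against 1.94, -0.34, 0.35 and -0.41 in glp-4 at L4. In wild type it was at 0.64, -0.40 and 2.17 in adults and at -1.37, -0.91, -1.43 and -0.16 at L4. Its adult arrays overlapped between strains. All adult arrays carry the mixed wording of the reference, so stage and reference wording are partly tied in this step.

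Marker lists of tissues were read at L4 against the 8.07% of all probes that were higher there in glp-4. Of a list of intestinal genes, 30 were on the arrays by name: the cest genes and cpr-9. The list's vit-2, vit-6, ges-1, elt-2, ifb-2 and act-5 were not found by name. At L4 12 of 28 tested were higher in glp-4 with a median difference of 0.62, 2 of 27 at L3 and 0 of 25 at L2. In adults 26 of 28 had a difference above 0, with a median of 0.66, beside 0.17 over all probes. These values thus stand mainly for a gene family rather than for the whole tissue. The neuronal genes found by name were all nlp genes, without unc-13 and rab-3 of the list. Of them, 1 of 13 tested was higher at L4, with a median of 0.19. Of the pals and irg genes, families named for a protein motif and for response to infection, 4 of 23 were higher at L4, with a median of 0.42. Of 3 adult somatic genes none passed at L4, with a median of -0.10. In adults these lists had the same direction as the intestinal one. Above 0 were 11 of 13 nlp genes, 20 of 23 pals and irg genes and 3 of 3 adult somatic genes. Their adult medians were 0.54, 0.52 and 0.78 in that order. The share of all probes above 0 in adults was not counted. The lists for epidermis and muscle had no gene on the arrays by name. The part of these tissues in the members' values was not tested.

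The other sequence-named genes that reached the adult difference had L4 medians close to that of the members. Those with fem-3 higher had 20 of 56 tested (35.7%) higher in glp-4 at L4, with a median of 0.82, and those with fem-1 higher had 5 of 18 (27.8%), with a median of 0.92. The members had 47.3% and 0.81. Among all sequence-named probes with enough values, 360 of 3836 (9.38%) were higher at L4. The difference between these sets was not tested.

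The choice did not use position, so the chromosomes of the members are described next, by the gene order of assembly WBcel235. The members were spread over all chromosomes: 47 lay on V, 40 on X, 31 on IV, 20 on I, 17 on II and 7 on III. As shares, V held 29.01% of the members and 24.1% of all genes with the values the choice needs, X 24.7% and 16.7%, IV 19.1% and 15.4%, I 12.3% and 14.2%, II 10.5% and 18.2%, and III 4.32% and 11.38%. At L4, 26 of 41 tested members on V were higher in glp-4, 16 of 37 on X, 11 of 17 on II, 9 of 28 on IV, 5 of 19 on I and 2 of 5 on III. No test was made of these shares, and the share of all genes on each chromosome that were higher at L4 was not counted.

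**Figure D4:**
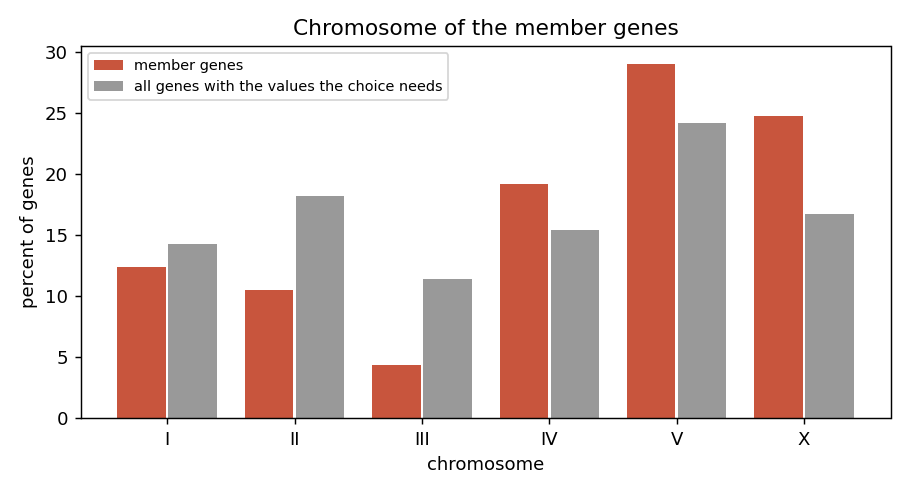
Percent of the member genes and of all genes with the values the choice needs (y axis) on each chromosome (x axis). X holds 24.7% of the members beside 16.7% of all such genes, and III 4.32% beside 11.38%.

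Members also lay near each other. Of 161 members placed in the gene order, 12 (7.45%) had another member as the next gene, 29 (18.01%) had one within 3 genes and 44 (27.3%) within 10. Of the 3768 other genes with the needed values, 2.36%, 6.34% and 16.2% had a member that near. The 44 members formed 18 groups, 13 of 2 genes, 4 of 3 and 1 of 6. At L4, 24 of 41 tested members in these groups and 46 of 107 outside them were higher in glp-4. This difference was not tested, and the share among the other genes beside the groups was not counted. Neighbouring genes can be similar in sequence, and cross-hybridization between their spots was not tested.

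The group of 6, chosen for description after its values were seen, lies on chromosome V and holds T01D3.6, F35E12.6, F35E12.9, F20G2.3, F20G2.5 and F53C11.1, with adult differences of 1.85, 1.503, 1.83, 1.38, 1.79 and 1.47. Their L4 differences were 1.05, 0.69, 1.07, 1.27, 0.19 and 0.54 in that order. Between them lies irg-5, an infection response gene whose symbol and fem ratio of 0.55 kept it out of the choice, at 1.68 in adults and -0.22 at L4. F35E12.4, F35E12.10, F20G2.1 and F20G2.2 lay close to the adult limit without reaching it, at 1.25, 1.10, 1.01 and 1.20, while F35E12.2 was at -0.39. F35E12.4, F20G2.2 and F35E12.2 were also outside the fem limit, with ratios of 0.62, -0.78 and 0.57. A group on chromosome IV holds F55G11.8, F55G11.2 and K10D11.5, at adult differences of 1.90, 2.17 and 1.37. Its neighbours F55G11.6, F55G11.7 and mbug-1 had 2.31, 2.18 and 2.11 and were kept out by fem ratios of -0.76 and -0.67 for the first pair and by its symbol for mbug-1. F55G11.2 had differences of 1.41 at L2, 1.38 at L3 and 1.20 at L4, of which none passed. F55G11.8 passed at L4, at 1.29 ± 0.29 (adjusted p = 0.00271).

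Other pairs differed in how alike they were. C08F11.13 and C08F11.3, on IV, had L4 differences of 1.54 ± 0.37 and 1.63 ± 0.56 (adjusted p = 0.00548 and 0.0458), though the call of C08F11.3 held in only 4 of 17 alternatives, and was lost among others with centred arrays and with the reference wording as a block. F54D5.4 and F54D5.3, adjacent on II, had 0.59 and 1.12, of which the second passed (adjusted p = 0.0143), in 10 of 17 alternatives. Near the members, sharp contrasts also occurred: F54D5.2, the next gene after F54D5.3, had an adult difference of -2.51, and C50F4.10, beside C50F4.1, had -2.22 with a fem ratio of 3.60. Of 64 other genes named on the arrays in or beside the groups, 56 had an adult difference, 38 of them above 0 and 4 of at least 1.3. Of the 3964 sequence-named genes with the needed values, 255 reached 1.3, the 163 members included. The adult median of all probes was 0.17, and their share above 0 was not counted.

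**Figure D5:**
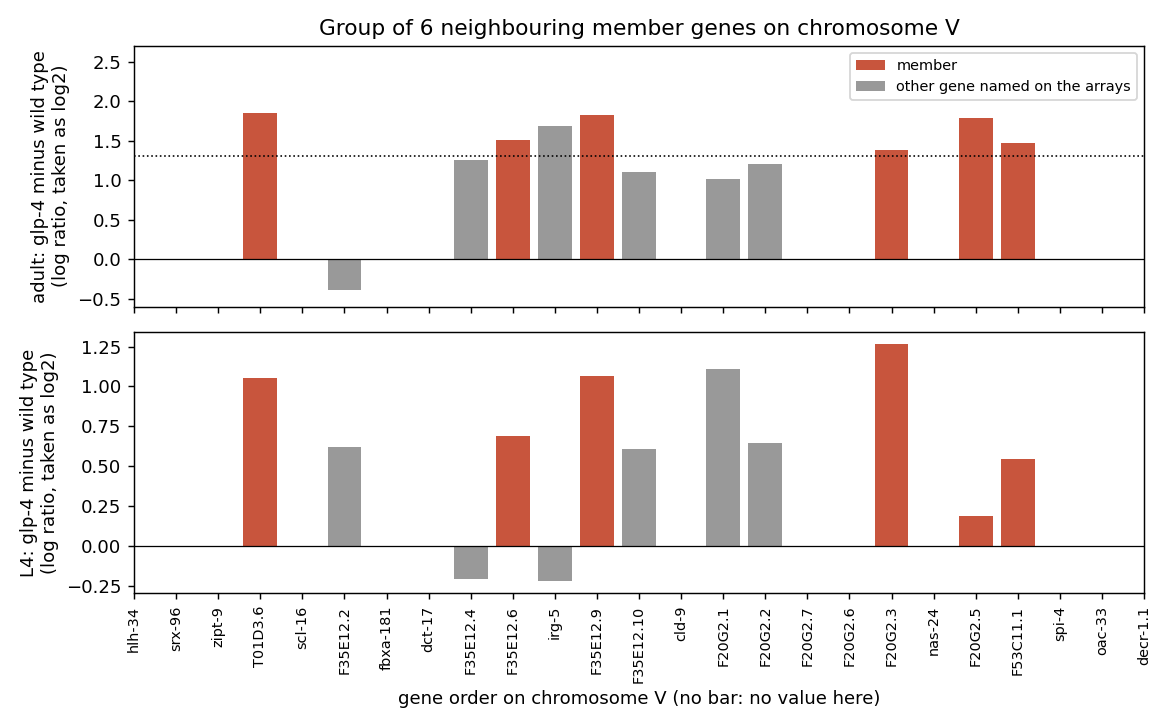
Difference of group means, glp-4 minus wild type (y axes, log ratio taken as log2), in adults (upper) and at L4 (lower) for the genes of the group on chromosome V in gene order (x axis); red bars are members, grey bars other genes named on the arrays, and the dotted line is the adult limit of 1.3. The 6 members have adult differences of 1.38 to 1.85; irg-5 is at 1.68 in adults and -0.22 at L4.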

How the data were processed

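The deposited table holds 1 log ratio of red over green per probe and array, taken here as log2, per the values and the labels; normalization, spot filters and the log base are unstated in the sources. Per the labels red was the pool on the 29 reference arrays, whose signs were turned, and fem-3 on every fem array, which leaves dye and strain inseparable there. Per the labels fem replicate 1 was reconstructed, with only its normalized ratios valid, fem replicate 3 is marked as a repeat, and for glp-4 L2 replicate 2 batches were pooled; whether other arrays came from separate cultures is not stated beyond batch numbers, so p-values measure only the spread between these samples. Values were used as deposited. With limma 3.58.1 (R 4.3.3) the 29 arrays were fitted as 8 group means, with prior degrees of freedom of 2.4; probes with 2 values per group compared were tested, two-sided, with Benjamini-Hochberg adjustment over all probes and a threshold of 0.05. The number of arrays limits the precision. There were 9 larval comparisons in all, and the fit was tested on simulated data.

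Probe names came from the platform annotation, and assembly WBcel235 gave chromosome and gene order only, since the build of the arrays is not stated. The members and lists were chosen with earlier results of these data known. Members named are the leading ones by size in each comparison, those nearest the limits and those with the widest fem or adult-to-L4 values; others are marked where they were picked after their values were seen. Promoter and protein sequences were not used here. Same-numbered arrays of the strains correlated from -0.05 to 0.22 in their deviations at L3 and L4, so the numbers were not taken to pair them. Within strains, same-numbered L3 and L4 arrays correlated from -0.06 to 0.33 in glp-4 and from 0.01 to 0.35 in wild type. The steps within strains were also tested without pairing. With a block for batch number within strain, the L3 to L4 counts of members called were 2 in glp-4 and 8 in wild type. Alternatives were other subsets of arrays, centring, complete values, and blocks for batch and reference wording. Further ones were each wording alone, each array left out, and group medians or other limits for the choice.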

Additional observations from a re-analysis of the deposited data

Results flagged for a closer look

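Among 97 groups of at least 4 arrays, over the 23 genes named for a larval call, 7 held an array far from the others, where chance gives about 1 in 20. In C08F11.13 wild-type L3 replicate 1 was at -2.67, with the others between -1.21 and -0.94. In F08G2.5 glp-4 adult replicate 1 was at -0.97 and the others between 0.91 and 1.23. In F54D5.4 wild-type L4 replicate 2 was at 3.07 and the others between 1.296 and 1.48. In C50F4.1 glp-4 L4 replicate 1 was at 0.28 and the others between -0.17 and -0.13. In C14F11.4 glp-4 adult replicate 4 was at 2.93 and the others between 2.54 and 2.60. In F59E11.5 glp-4 L4 replicate 2 was at 2.18 and the others between 1.84 and 1.90. In F23H12.5 wild-type L4 replicate 4, whose label reads L34, was at 1.06 and the others between -0.29 and -0.13. Each of the 7 was a different array.

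For C05C8.7 the strain difference changed from L3 to L4 by 1.07, which the test of that change called.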

How the results depend on the processing

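Counts of members called, in either direction, are given against 71 at L4, 16 at L3, 1 at L2, 1 for the change from L3 to L4, 42 and 3 for the steps in glp-4, and 1 and 7 for those in wild type. Leaving out each array gave 46 to 73 at L4, 6 to 21 at L3, 0 to 4 at L2, 0 to 5 for the change of the strain difference from L3 to L4 and 0 to 3 for that from L2 to L3. For the steps it gave 21 to 49 for L3 over L2 in glp-4, 1 to 3 for L4 over L3 in glp-4, 0 to 1 for L3 over L2 in wild type and 4 to 12 for L4 over L3 in wild type. The choice gave 131 to 192 genes. Of the 163, 116 to 125 were kept when a wild-type adult array was left out. Leaving out a glp-4 adult array kept 127 to 142, and leaving out a fem array kept 144 to 152.

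With the mixed wording alone 8 passed at L4 and 0 at L3, and with the REF-vjr wording alone 11 and 0; these fits hold fewer arrays, and the L4 medians were 0.93 and 0.71, the L3 medians 0.64 and 0.47. With only the arrays compared the counts were 2 at L3, 0 at L2, 0 for the change from L3 to L4, 17 and 1 for the steps in glp-4, and 0 and 4 for those in wild type. With only the larval arrays the change from L3 to L4 gave 0. Without the 3 arrays of unlike labels the counts were 46 at L4, 4 at L2, 3 for the change from L3 to L4 and 2 for that from L2 to L3. The replicate block gave 3 for the change from L3 to L4 and moved no other count by over 1.5 times. Members with a value on every array compared gave 1 for L4 over L3 in glp-4 and 0 for L3 over L2 in wild type. The choice gave 319 genes at an adult limit of 1.0, 68 at 1.6 and 88 at a fem limit of 0.25. Centring the arrays gave 187, of which 153 are among the 163. Choosing by group medians in place of means gave 170, of which 124 are among the 163. The cause of these shifts was not tested, and several of these fits held fewer arrays. Of 1140 refits of single named genes at L4 and L3, 1009 kept their side of the threshold, 117 lost it, 14 passed it and 0 changed the sign of a called difference. The 1009 include refits of genes that were not called to begin with. All 117 losses fell on genes called with all arrays, so the 1140 are not the base for the share of calls lost.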
